A study of Mus musculus with 4 samples.

Results

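Heat shock and unfolded protein response genes were compared between mammary tumours with 2 transgenes, MMTV-cdc25a and MMTV-neu (Cdc25a;neu), and tumours with only MMTV-neu (neu). The list holds 35 genes. A probe belonged to it where the array named it by a listed symbol or by 1 of 5 former symbols (Hsp25, Hspca, Hspcb, Tra1, Hsp105), which found 29 of the 41174 probes outside controls and 24 of the 35 genes. A further 8 listed genes (Hspa1a, Hspa9, Hspb1, Asns, Pdia3, Pdia4, Edem1 and Sel1l) appear on the array only under an accession or another synonym. They were found through an annotation table and are described with the others, with counts given without them first. Hspa1b, Atf6 and Pdia6 had no probe under any name that could be matched. The heat shock factor Hsf2 was not well above background on any array and has no value. Values thus exist for 23 of the 24 genes found by symbol and for 31 of the 35 listed.

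All animals were female FVB/N mice aged 26 weeks with mammary tumours at the early T1 stage. MMTV is the mammary tumour virus promoter, which is active mainly in mammary epithelium, and neu is Erbb2, a receptor tyrosine kinase, as named in rodents. Both genotypes carried MMTV-neu, so by design the comparison is of the added phosphatase Cdc25a, an activator of cyclin-dependent kinases. Each of 2 Cdc25a;neu tumours was hybridised with 1 neu tumour on 2-colour Agilent arrays, and each pair was hybridised again with the dyes exchanged, giving 4 arrays from 4 mice. The mouse pair is therefore the replicate (n = 2 pairs), and the dye exchange is technical.

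Heat shock proteins are chaperones that bind unfolded proteins in the cytosol and mitochondria, and many of their genes are switched on by the transcription factor Hsf1 when misfolded protein builds up. The unfolded protein response is the corresponding programme of the endoplasmic reticulum (ER). Its sensors act through Atf6, Xbp1 and Atf4, which raise ER chaperones, the machinery that exports and degrades misfolded proteins, and genes of amino acid supply. Secretory epithelium such as that of the mammary gland relies on it, and many tumours use both programmes.

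The binding letters of these factors can be read in the promoters of the genes whose values are described most closely. The RefSeq windows of the build GRCm38.p6 hold the bases before each gene's start for 28 of the 35 listed genes. The 250 bases before the start are printed 5′ to 3′ on the gene's own strand, with the matches in capitals, to show which of the 2 programmes' motifs lie beside the genes that stood apart in 1 pair (Hspa1a, Hspb1) or had 1 direction on all 4 arrays (Hsph1, Herpud1, Hspa5), and beside the ER partner of Hspa5 (Hsp90b1). Only windows with a match are shown, and not all of those: Hspd1, also lower on all 4 arrays, has heat shock elements but is not printed. Xbp1, Dnajb1 and Edem1, also of 1 sign on all 4 arrays, have none of these motifs in theirs. No window was at hand for Hspa8. Hspa1a lies at chr17:34972157-34972406 (minus strand), Hspb1 at chr5:135887669-135887918 (plus), Hsph1 at chr5:149636337-149636586 (minus), Hspa5 at chr2:34771840-34772089 (plus), Hsp90b1 at chr10:86705445-86705694 (minus) and Herpud1 at chr8:94386179-94386428 (plus). All 6 windows are promoter sequence upstream of the transcript.
Hspa1a: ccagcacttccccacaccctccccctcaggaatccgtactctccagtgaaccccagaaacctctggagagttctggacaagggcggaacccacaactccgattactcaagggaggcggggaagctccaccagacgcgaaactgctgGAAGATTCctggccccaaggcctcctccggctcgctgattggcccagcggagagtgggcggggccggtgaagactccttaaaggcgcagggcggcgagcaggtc
Hspb1: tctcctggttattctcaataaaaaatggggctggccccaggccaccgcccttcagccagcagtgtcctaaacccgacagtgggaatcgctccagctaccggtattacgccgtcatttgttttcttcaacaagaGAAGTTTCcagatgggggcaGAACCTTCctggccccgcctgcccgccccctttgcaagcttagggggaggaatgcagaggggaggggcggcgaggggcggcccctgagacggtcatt
Hsph1: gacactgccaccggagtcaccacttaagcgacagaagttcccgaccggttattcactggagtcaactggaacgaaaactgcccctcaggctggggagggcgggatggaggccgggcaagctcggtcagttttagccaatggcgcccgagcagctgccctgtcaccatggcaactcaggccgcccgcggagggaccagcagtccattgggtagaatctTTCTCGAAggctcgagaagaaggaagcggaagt
Hspa5: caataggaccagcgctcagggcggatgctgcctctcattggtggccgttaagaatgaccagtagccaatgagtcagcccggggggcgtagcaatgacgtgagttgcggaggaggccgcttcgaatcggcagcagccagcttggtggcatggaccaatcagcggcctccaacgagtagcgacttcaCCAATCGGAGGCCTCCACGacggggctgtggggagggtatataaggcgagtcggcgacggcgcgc
Hsp90b1: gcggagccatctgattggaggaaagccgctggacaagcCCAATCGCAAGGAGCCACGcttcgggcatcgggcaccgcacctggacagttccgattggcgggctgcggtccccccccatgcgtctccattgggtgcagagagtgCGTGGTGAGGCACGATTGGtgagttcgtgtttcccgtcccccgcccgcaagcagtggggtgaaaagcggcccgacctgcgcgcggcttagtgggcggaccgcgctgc
Herpud1: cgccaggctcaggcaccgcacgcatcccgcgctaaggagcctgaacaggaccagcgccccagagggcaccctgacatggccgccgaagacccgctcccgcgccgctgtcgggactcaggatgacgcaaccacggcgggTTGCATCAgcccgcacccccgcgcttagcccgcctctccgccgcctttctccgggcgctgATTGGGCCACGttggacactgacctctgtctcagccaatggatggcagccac
Capitals mark the heat shock element, searched as GAANNTTC or TTCNNGAA, in the first 3 windows. They mark the ER stress response element, searched as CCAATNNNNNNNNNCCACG, in Hspa5 and Hsp90b1. In Herpud1 they mark the second form of that element, searched as ATTGG and CCACG with 1 base between them, and the ATF4 composite element, searched as TGATGNAA. Both strands were read for every motif, and in Asns the match to the ATF4 composite element overlaps that to the heat shock element.

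Among all 32851 windows of this length, 12.8% hold a heat shock element, 0.113% an ER stress response element, 0.0304% its second form and 3.45% an ATF4 composite element. Of the 28 listed genes with a window, 9 hold a heat shock element (Asns, Cct2, Dnaja1, Hspa1a, Hspa1b, Hspb1, Hspd1, Hspe1 and Hsph1) and 5 an ER stress response element (Calr, Canx, Hsp90b1, Hspa5 and Pdia6). The second form is found in Herpud1 alone among them, and the ATF4 composite element in Asns and Herpud1. Hspb1 has 2 separate heat shock elements, starting 117 and 97 bases before the start. Hspd1 and Hspe1 are divergent neighbours, and 3 overlapping matches in their windows are the same bases. Hsp90b1 has 2 ER stress response elements, starting 212 and 107 bases before the start, and Hspa5 has 1, starting 65 bases before it. A match describes these letters and says nothing of binding in the tumours.

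On the 4 arrays, 78.5% to 92.3% of 41534 spots were well above background in green and 82.7% to 87.9% in red. All 45 kept probes of listed genes were well above background in both genotypes on all 4 arrays, and 0 were saturated, so no listed gene with a value is given as a bound. The Cdc25a probe gave a log2 ratio of 0.05 ± 0.06 (SD between pairs, n = 2 pairs), and the Erbb2 probe gave 0.65 ± 0.28. Erbb2, the gene of the shared transgene, was higher in Cdc25a;neu on all 4 arrays, as 14.7% of all genes were. It was at 0.42 and 0.48 in pair 1 and at 0.76 and 0.93 in pair 2 (limma adjusted p = 0.49). Whether either probe detects the transgene's transcript was not tested. The epithelial genes that define the tissue were present: the keratin gene Krt8 stood at a log2 signal of 13.79 to 13.96 and Krt18 at 14.3 to 14.61 over the 4 tumours.

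Values of the genes found by symbol were more often below 0 (lower in Cdc25a;neu) than above it, and none of these genes passed the test. Of 23 genes, 11 were lower in both pairs, 3 were higher in both (Hspa5, Cct2 and Hspe1) and 9 went opposite ways. The corresponding shares of all 32632 genes tested were 28.1% lower, 31.9% higher and 40% opposite. With the 8 further genes, 13 of 31 were lower in both pairs, 4 were higher and 14 went opposite ways. The median log2 ratio of the 23 genes was -0.07 in pair 1, -0.13 in pair 2 and -0.10 in the mean of both, against 0.003 for the mean over all genes.

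With limma, 0 of 23 genes and 0 of 32632 genes (0%) had an adjusted p under 0.05, and the lowest among the 23 was an adjusted p of 0.438. At an unadjusted p under 0.05, limma had 6 of the 23 lower (Herpud1, Hsph1, Xbp1, Hspa8, Dnajb1 and Dnaja1), where 5.73% of all genes were, and 1 higher (Hspa5), where 3.9% were. A limma fit on the separate channels of the 4 mice called 0 of the 23 and 0 of all genes, and had 2 of the 23 at an unadjusted p under 0.05, where 3.18% of all genes were. With 2 pairs an exact sign test cannot go below p = 0.5. Under median centring in place of loess, limma called 1 of the 23, Herpud1, and 996 of all genes.

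The same reading on single arrays is stricter. Of the 23 genes, 6 were lower on all 4 arrays (Herpud1, Hsph1, Xbp1, Hspa8, Dnajb1 and Hspd1), against 12.4% of all genes, and Hspa5 alone was higher on all 4, against 14.7%. Both Cdc25a;neu tumours lay below both neu tumours for 7 of the 23 (11.2% of all genes) and above both for 2 (8.65%). The 8 further genes added none that was lower on all 4 arrays and 1, Edem1, that was higher. The plot of every array shows these values gene by gene.

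**Figure D1:**
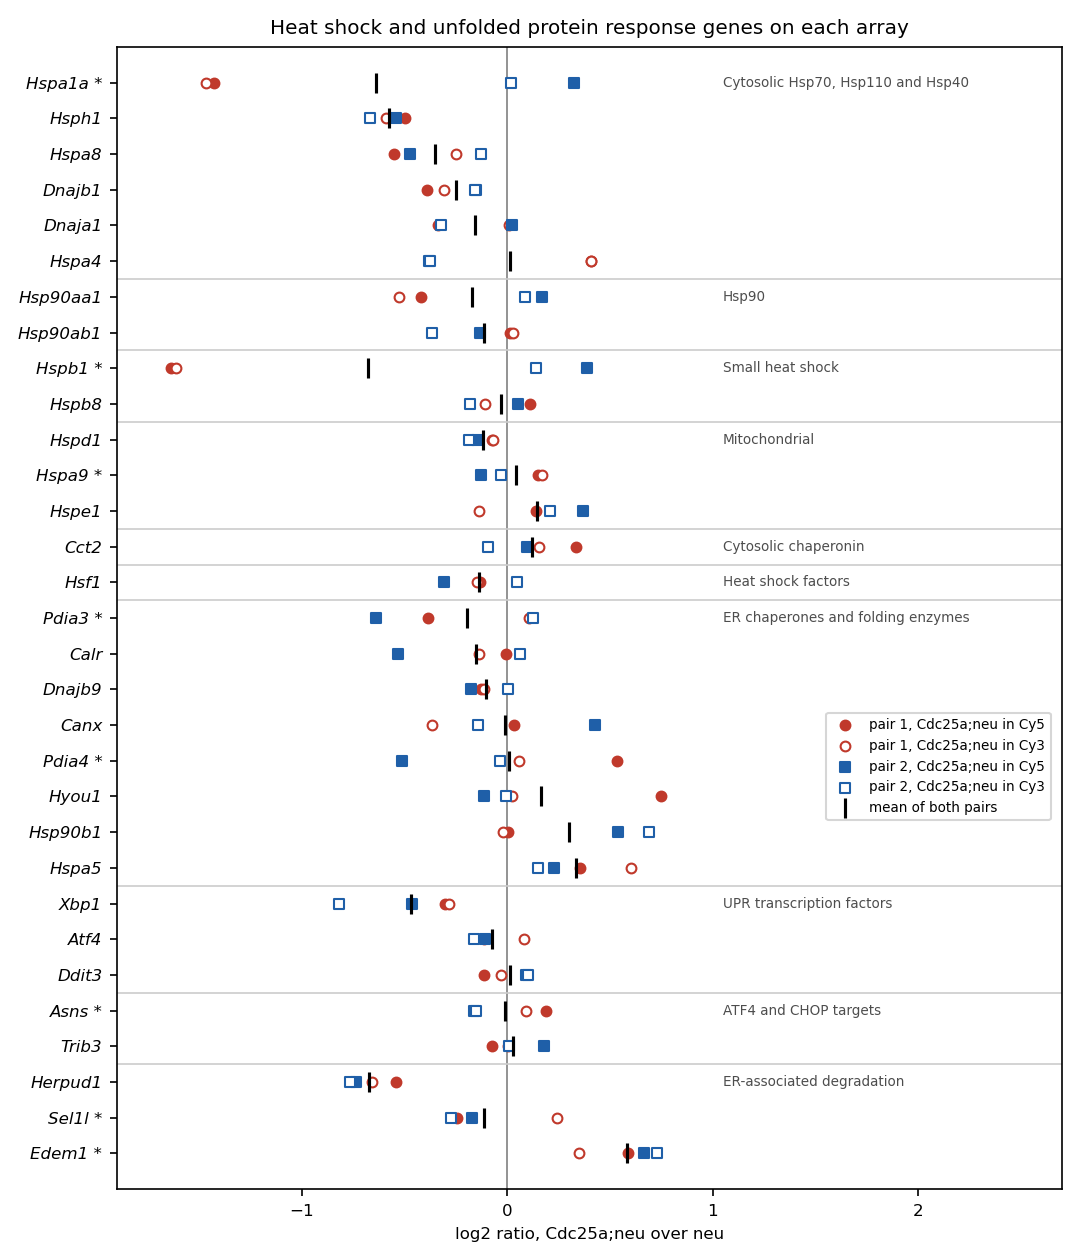
Log2 ratio of Cdc25a;neu over neu (x axis) on each of the 4 arrays for the 31 measured genes, grouped by role; circles are pair 1, squares pair 2, filled symbols carry Cdc25a;neu in Cy5, open symbols in Cy3, and vertical bars are the mean of both pairs. An asterisk marks genes found by accession or synonym; the 2 circles of Hspa1a and of Hspb1 lie between -1.64 and -1.43 while their squares lie between 0.02 and 0.39, and the 4 symbols of Herpud1 and Hsph1 lie close together below 0.

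The inducible cytosolic chaperones Hspa1a and Hspb1 differed most between the pairs. Hspa1a encodes the stress-inducible Hsp70, and Hspb1 the small heat shock protein that holds unfolded proteins for refolding. For Hspa1a the log2 ratio was -1.43 and -1.47 on the 2 arrays of pair 1 but 0.33 and 0.02 on those of pair 2. The log2 signal of the 4 tumours was 8.36 in the Cdc25a;neu tumour of pair 1, 9.68 in that of pair 2, and 9.81 and 9.51 in the neu tumours. Thus the low value belongs to a single tumour, and the genotypes overlap. Pair 1 alone gives a signal 2.73-fold lower, and 38 of all genes (0.116%) were as low or lower in that pair. The mean was -0.64 ± 1.14 (SD, n = 2 pairs; limma adjusted p = 0.718).

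Hspb1 had the same arrangement. Its log2 ratio was -1.64 and -1.61 on the pair 1 arrays and 0.39 and 0.14 on the pair 2 arrays. The tumours stood at 8.54 and 9.67 for Cdc25a;neu in pairs 1 and 2, and at 10.16 and 9.41 for neu. Again the Cdc25a;neu tumour of pair 1 was low, and in this case the neu tumour of pair 1 was also the highest of the 4. The mean was -0.68 ± 1.33 (limma adjusted p = 0.738), and the pair 1 signal was 3.08-fold lower. That lies below the pair 1 value of Hspa1a, which 0.116% of all genes reached. At the looser cutoff of 2-fold, 0.374% of all genes were lower in that pair. Hspa1a and Hspb1 were the only listed genes past 2-fold in either pair.

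The Hspa1a values rest on 3 probes. The other 2 probes were at -1.68 and -0.71 in pair 1, and at 0.20 and -0.09 in the second pair. All 3 were thus low in pair 1. Hspa1b is a near-identical neighbour of Hspa1a, with 247 of 250 bases before the start equal at the same distance (98.8%). The probe sequences were not used here, so whether the probes separate these 2 genes was not checked. The signal given for Hspa1a may include that of Hspa1b.

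The other cytosolic Hsp70 system genes were closer between pairs. Hsph1, the Hsp110 nucleotide exchange factor for Hsp70, had log2 ratios of -0.50, -0.59, -0.54 and -0.67 on the 4 arrays. Its tumours stood at 8.02 and 8.32 in Cdc25a;neu and at 8.56 and 8.93 in neu, so the genotypes did not overlap. The mean was -0.57 ± 0.04, a 1.49-fold lower signal, with a limma adjusted p of 0.438.

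Hspa8, the constitutive Hsp70, had log2 ratios of -0.55 and -0.25 on the pair 1 arrays and -0.47 and -0.13 on the pair 2 arrays, with the Cy5 array the lower of each pair. The 2 Cdc25a;neu tumours, at 13.15 and 13.47, lay below the 2 neu tumours at 13.55 and 13.77. Its mean was -0.35 ± 0.07 (limma adjusted p = 0.46).

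Dnajb1, the Hsp40 co-chaperone that delivers substrates to Hsp70, gave -0.39, -0.31, -0.15 and -0.16, with a mean of -0.25 ± 0.14. Its tumours did not overlap either, at 9.76 and 9.83 against 10.11 and 9.98. A second Dnajb1 probe gave 0.04 in pair 1 and -0.18 in pair 2, so 1 of the 2 probes was low in pair 1. Dnaja1, another Hsp40, was at -0.34 and 0.01 on the pair 1 arrays and 0.02 and -0.32 on the pair 2 arrays, with a mean of -0.16 ± 0.01. The close pair means of Dnaja1 cover single arrays that disagree by more than the means themselves, and without the Cy5 array of pair 1 its mean was -0.07. Of the 6 measured genes of this class, 4 were lower in both pairs (28.1% of all genes) and none (0) was higher in both (31.9%). Their median was -0.30.

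Hspa4, a second Hsp110-type gene, went opposite ways in the pairs and its probes disagreed. The brightest probe gave 0.41 on both arrays of pair 1 and -0.38 and -0.37 on those of pair 2. The other 3 gave -0.17 and 0.32, -0.04 and -0.04, and -0.15 and 0.25 in pairs 1 and 2. Of the 4 probes, 3 therefore oppose or lack the pattern of the probe that stands for the gene, and its mean of 0.02 ± 0.56 describes no direction.

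**Figure D2:**
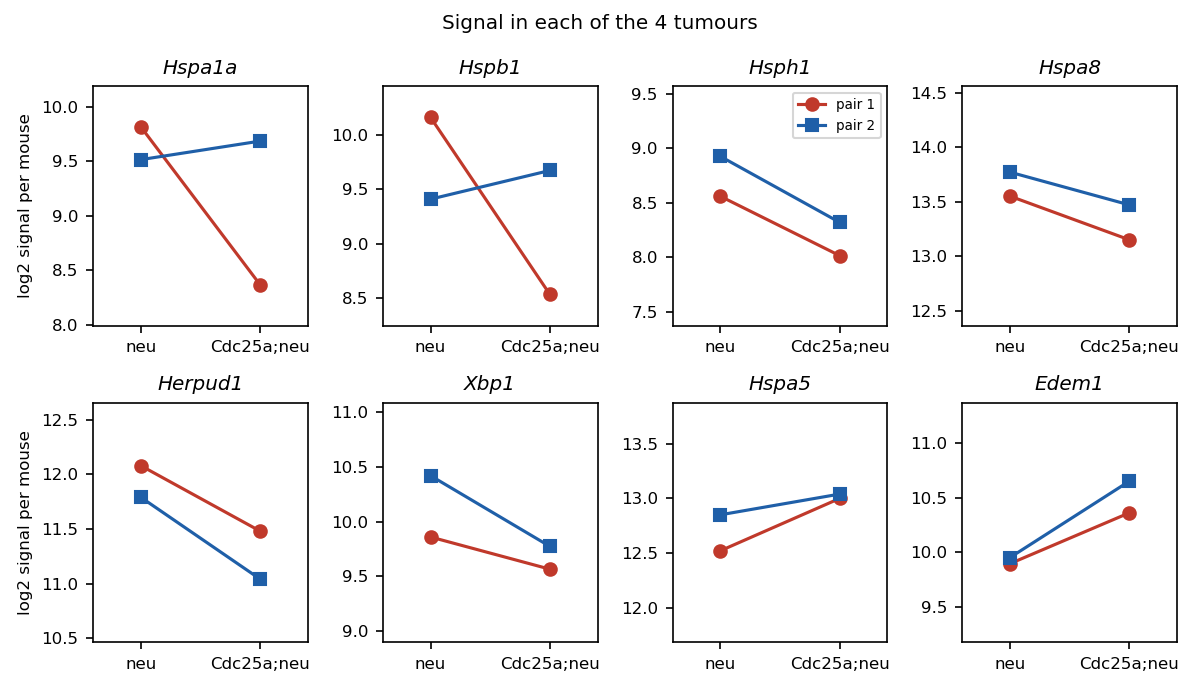
Log2 signal of each of the 4 tumours (y axis, each panel spanning the same range) for 8 listed genes, with lines joining the neu and Cdc25a;neu tumours of pair 1 (circles) and pair 2 (squares). For Hspa1a and Hspb1 the circle at Cdc25a;neu, at 8.36 and 8.54, lies well below the other 3 tumours, whereas for Hsph1, Hspa8, Herpud1, Xbp1, Hspa5 and Edem1 both lines slope the same way.

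Hsp90, the chaperone of kinases and steroid receptors, has 2 cytosolic genes. The inducible Hsp90aa1 was at -0.42 and -0.53 on the pair 1 arrays and 0.17 and 0.09 on the pair 2 arrays, a smaller form of the split seen for Hspa1a and Hspb1. Its tumours stood at 12.12 and 12.61 in Cdc25a;neu and at 12.59 and 12.48 in neu, with the Cdc25a;neu tumour of pair 1 again the lowest. The mean was -0.17 ± 0.43 (limma adjusted p = 0.79). The constitutive Hsp90ab1 gave 0.02 and -0.25 in pairs 1 and 2, and its second, dimmer probe gave -0.34 and 0.08, so neither pair has a direction that both probes share.

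The small heat shock gene Hspb8, a partner of selective autophagy, had a mean of -0.03 ± 0.05. Its sign followed the dye, being above 0 on both Cy5 arrays and below 0 on both Cy3 arrays. That holds for Hspb8 and Canx among the 23 genes and for 12.6% of all genes.

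Among mitochondrial chaperones no common direction appeared. Hspd1 (Hsp60) was at -0.07, -0.07, -0.15 and -0.18, with a mean of -0.12 ± 0.07, but a second and brighter probe found by accession gave 0.02 and 0.11. Its cofactor Hspe1 (Hsp10), which shares the promoter region described above, gave 0.003 in pair 1 and 0.29 in pair 2. Hspa9, the mitochondrial Hsp70, gave 0.16 and -0.08, and its second probe 0.08 and -0.17. The only chaperonin subunit on the list, Cct2, which folds actin and tubulin, was at 0.24 and 0.00051.

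Hsf1, the factor that drives the heat shock genes, was at -0.13, -0.15, -0.31 and 0.05, with a mean of -0.14 ± 0.01 and -0.10 for its second probe. Its 2 Cdc25a;neu tumours, at 7.996 and 8.04, lay just under the neu tumours at 8.14 and 8.17, and limma gave an adjusted p of 0.527. Transcript levels of Hsf1 do not measure its activity, which is set mainly on the protein.

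Hspa5 (BiP), the main Hsp70 of the ER, had log2 ratios of 0.35 and 0.60 on the pair 1 arrays and 0.23 and 0.15 on the pair 2 arrays. The Cdc25a;neu tumours stood at 13.00 and 13.04, above the neu tumours at 12.52 and 12.85. Its mean was 0.33 ± 0.20, a 1.26-fold higher signal (limma adjusted p = 0.517). In the authors' deposited value table its mean was smaller, at 0.14. Hspa5 was the only gene found by symbol that was higher on all 4 arrays.

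Hsp90b1 (Grp94), the Hsp90 of the ER, was near 0 in pair 1, at 0.0013 and -0.02, and higher in pair 2, at 0.54 and 0.69. A second and brighter probe gave 0.43 in pair 1 and 0.10 in pair 2. Both probes average near 0.3, at 0.30 and 0.26, yet the higher value lies in a different pair for each. The probe found by symbol had an adjusted p of 0.674 with limma.

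Hyou1, the ER member of the Hsp110 family, was at 0.75 and 0.02 on the 2 arrays of pair 1, so the value of that pair rests on 1 dye orientation. In pair 2 it was at -0.11 and -0.01. Dnajb9, a co-chaperone of Hspa5, had a mean of -0.10 ± 0.03, and the lectin chaperone gene Calr one of -0.15 ± 0.12, with -0.53 and 0.06 on the 2 arrays of pair 2. Without the Cy5 array of pair 2 the mean of Calr was -0.0066.

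Canx, the membrane-bound lectin chaperone, was at -0.17 and 0.14 in pairs 1 and 2. Its other probes gave -0.26 and 0.38, and 0.02 and 0.11. The disulfide isomerase gene Pdia3 was lower on both Cy5 arrays, at -0.39 and -0.64, and higher on both Cy3 arrays, at 0.11 and 0.13, so its sign followed the dye, and without the Cy5 array of pair 2 its mean went from -0.20 to -0.0059. Pdia4, a related isomerase, was at 0.54 and 0.06 on the pair 1 arrays and -0.51 and -0.04 on the pair 2 arrays. Over the 8 measured ER chaperones and folding enzymes, 3 were lower in both pairs (28.1% of all genes), 1 was higher (31.9%) and 4 went opposite ways (40%). Their median was -0.0012.

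Of the 3 measured transcription factors of the unfolded protein response, Xbp1 and Atf4 were lower in both pairs, and Xbp1 was also lower on all 4 arrays. Xbp1 is the factor whose transcript is spliced by the ER sensor Ire1, and whether its 1 probe separates the spliced form was not checked. It was at -0.31 and -0.28 on the pair 1 arrays and -0.46 and -0.82 on the pair 2 arrays. Both Cdc25a;neu tumours, at 9.56 and 9.77, lay below the neu tumours at 9.86 and 10.42. The mean was -0.47 ± 0.25, a 1.38-fold lower signal (limma adjusted p = 0.501). Atf4, which is controlled largely through translation, was at -0.02 in pair 1 and -0.13 in pair 2, and Ddit3 (CHOP), its pro-apoptotic target, one of 0.01 ± 0.12. Further targets of this branch were near 0 as well. Trib3, a pseudokinase, had a mean of 0.03 ± 0.09, and the asparagine synthetase gene Asns one of -0.01 ± 0.21, with 0.14 in pair 1 and -0.16 in pair 2.

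Of the genes with 1 direction in both pairs, Herpud1 and Edem1, both of ER-associated degradation, had the largest means, in opposite directions. The mean of cytosolic Hsph1, at -0.57 ± 0.04, was close in size to that of Edem1, with less spread between pairs. Herpud1, a membrane protein that organises the degradation complex, was at -0.54, -0.66, -0.73 and -0.77 on the 4 arrays. Its Cdc25a;neu tumours stood at 11.48 and 11.04 and its neu tumours at 12.08 and 11.79, without overlap. The mean of -0.67 ± 0.11 is a 1.60-fold lower signal and did not pass the test (limma adjusted p = 0.438). Edem1, which extracts misfolded glycoproteins from the folding cycle, was at 0.59, 0.35, 0.66 and 0.73. Its Cdc25a;neu tumours, at 10.36 and 10.65, lay above its neu tumours at 9.89 and 9.95. The mean was 0.58 ± 0.16, a 1.496-fold higher signal (limma adjusted p = 0.449). Sel1l, the scaffold of the Hrd1 ligase complex, was at -0.0027 and -0.22 in pairs 1 and 2, and its second probe at 0.06 and -0.07. Herpud1 and Edem1 have 1 probe each, so no other probe bears on them. The same holds, among others, for Hsph1, Hspa8, Xbp1, Hspa5, Hspb1 and Hsp90aa1.

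**Figure D3:**
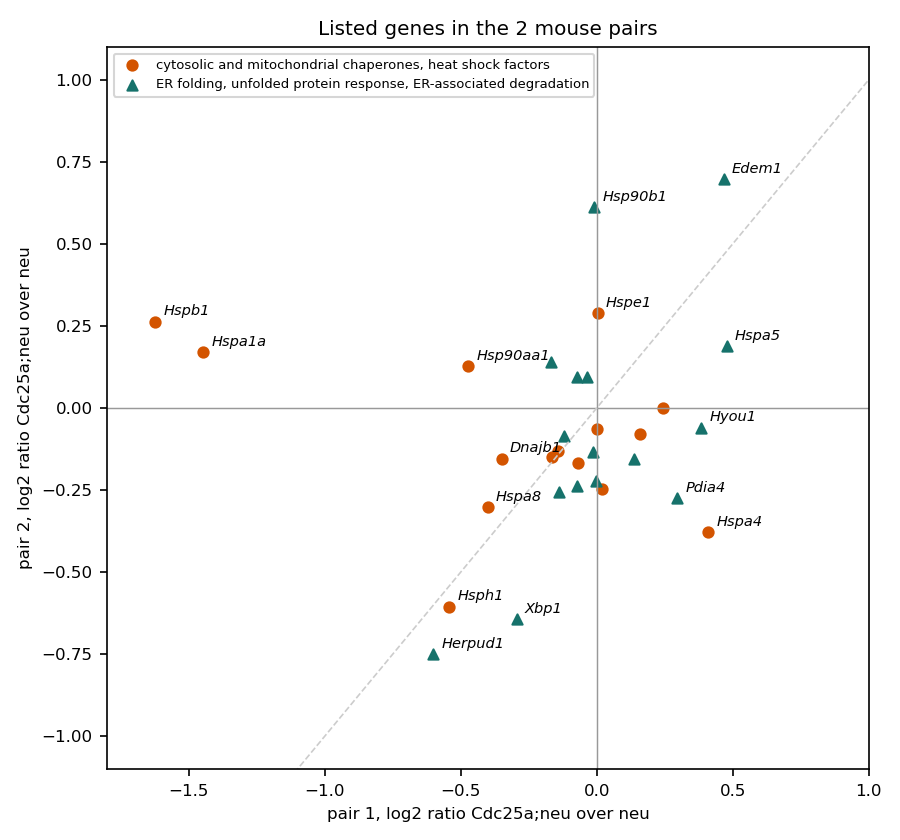
Log2 ratio of Cdc25a;neu over neu in pair 1 (x axis) against pair 2 (y axis) for the 31 measured genes, 1 point per gene, with cytosolic and mitochondrial genes as circles and ER genes as triangles; the dashed line marks equal values. Herpud1, Hsph1 and Xbp1 lie low in both pairs, Edem1 and Hspa5 high in both, and Hspb1 and Hspa1a far to the left at -1.62 and -1.45 with 0.26 and 0.17 in pair 2.

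Across the 23 genes the 2 pairs had a Pearson correlation of 0.42, and across all 31 one of 0.06. Leaving out Hspa1a and Hspb1 gave 0.47 over 29 genes, so the low value over 31 rests on these 2. Over all genes it was 0.35. The 2 dye orientations of a pair, which share their RNA, correlated at 0.86 in pair 1 and 0.66 in pair 2 over the 31 genes. By rank (Spearman) these values were 0.70 and 0.53. Hspa1a and Hspb1, low on both arrays of pair 1, are part of the 0.86. These correlations are across genes, which are not independent replicates, and are given as a description. The median gap between the dye orientations of a gene was 0.11 in pair 1 and 0.16 in pair 2. Median size without regard to sign was 0.15 for the 23 genes and 0.06 for all genes, while the median log2 signal was 9.9 and 7.32.

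**Figure D4:**
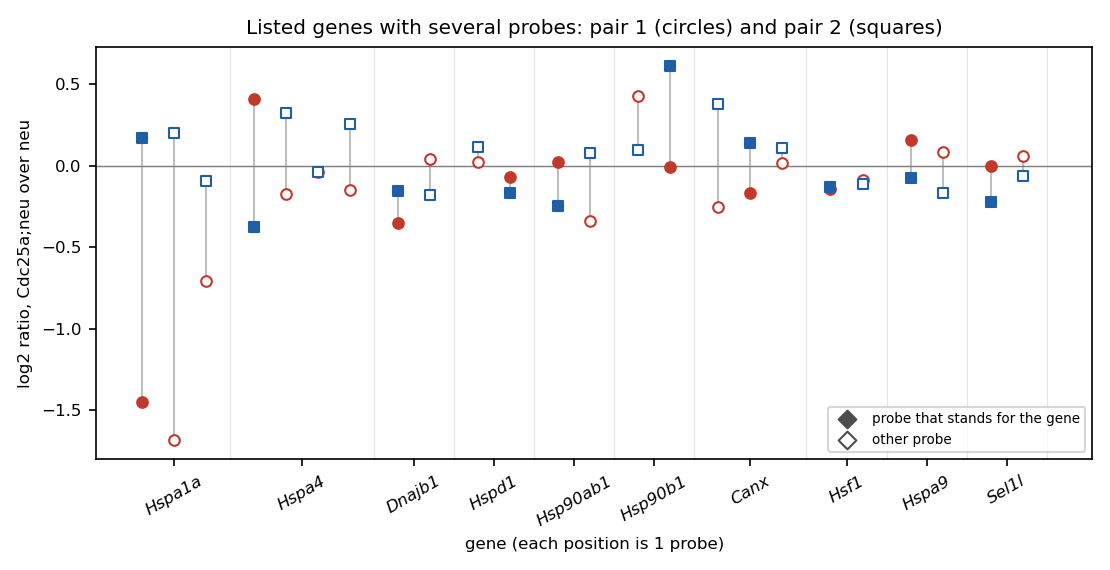
Log2 ratio of Cdc25a;neu over neu (y axis) for each kept probe of the 10 listed genes with several probes, with circles for pair 1, squares for pair 2 and a grey line joining the pairs; filled symbols are the probe that stands for the gene. The 3 Hspa1a probes share a low circle, whereas the 4 Hspa4 probes and the 2 Hsp90b1 probes disagree on which pair is higher.

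Genes that share a promoter motif did not share a direction. Of the 8 measured genes with a heat shock element, 3 were lower in both pairs (Dnaja1, Hspd1 and Hsph1), 2 were higher (Cct2 and Hspe1) and 3 went opposite ways (Asns, Hspa1a and Hspb1). Over all genes 28.1% were lower, 31.9% higher and 40% opposite, so these counts lie near the shares of all genes. Cct2 was at only 0.00051 in pair 2 and Hspe1 at only 0.003 in pair 1. The brighter Hspd1 probe was above 0 in both pairs, at 0.02 and 0.11. Of the 4 measured genes with an ER stress response element, Calr was lower in both pairs, Hspa5 higher in both, and Canx and Hsp90b1 went opposite ways. Herpud1, the one gene with the second form of that element, was lower in both.

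Other genes of the same pathways were read from 6 wider lists of 95 genes, of which 86 were measured and 0 passed the limma test. Of 25 other cytosolic chaperones and Hsf1 targets, 14 were lower in both pairs (28.1% of all genes) and 3 higher (31.9%), with 7 lower on all 4 arrays (12.4%) and a median of -0.11. At an unadjusted p under 0.05, limma had 6 of the 25 lower (5.73% of all genes). The 3 with the largest mean among those of 1 sign on all 4 arrays were Chordc1, an Hsp90 co-chaperone (-0.40 ± 0.07), and the Hsp40 genes Dnajb2 (-0.37 ± 0.21) and Dnaja2 (-0.35 ± 0.18). Limma's adjusted p was 0.447 to 0.513 for these 3.

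The wider ER folding list had no common direction in both pairs. Of 22 measured genes, 6 were higher in both pairs (31.9% of all genes), 4 were lower (28.1%) and 12 went opposite ways (40%). Their median was 0.16 in pair 1 but -0.06 in pair 2. Named by the same rule, Creld2, an ER stress-inducible gene, had 0.37 ± 0.21, the proline isomerase Fkbp11 had 0.35 ± 0.26 and the ER reductase Dnajc10 had -0.22 ± 0.10. A second Fkbp11 probe gave 0.27.

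In the wider degradation list, 2 of 11 were lower in both pairs, 2 were higher and 7 went opposite ways, so agreement between pairs was no more frequent than over all genes (28.1% lower, 31.9% higher). Ube2j1, the ubiquitin-conjugating enzyme of the ER membrane, had -0.37 in pair 1 and -0.96 in pair 2, and Os9, a lectin that delivers substrates, had -0.33 ± 0.06, though its second probe gave 0.01. Selenos, a member of the export complex, had 0.28 ± 0.22.

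Of 16 measured genes of the Atf4 branch, 4 were lower in both pairs (28.1% of all genes), 4 were higher (31.9%) and 8 went opposite ways (40%). Phgdh, the first enzyme of serine synthesis, was at 0.47 and 0.84 in the pairs, and of its 4 other probes 3 gave 0.50 to 0.65 and 1 gave 0.03. Atf3, a stress-induced repressor, had -0.43 ± 0.36, and the secreted glycoprotein Stc2 had -0.40 ± 0.25. The 6 measured chaperonin subunits and 6 mitochondrial genes of the wider lists had medians of 0.03 and -0.04, with none (0) of them of 1 sign on all 4 arrays.

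In whole tumours, fewer cells of a type and less RNA per cell cannot be told apart. Epithelial markers summed to a log2 signal of 15.42 and 15.53 in Cdc25a;neu tumours and 15.5 and 15.61 in neu tumours. That sum, mostly Krt18 and Krt8, differed little. Single markers were more often lower: 5 of 8 in both pairs (28.1% of all genes), with 1 higher (31.9%). Their median log2 ratio was -0.16 in pair 1 and -0.14 in pair 2, against -0.07 and -0.13 for the 23 genes found by symbol. Fat cell markers differed most: 7 of 8 were lower in both pairs (28.1% of all genes). They summed to 10.98 and 11.37 in Cdc25a;neu against 12.78 and 14.17 in neu. Among listed genes, Herpud1, Xbp1, Hsph1, Pdia3, Calr, Hspd1, Sel1l and Atf4 were likewise lower in both pairs, and more so in pair 2. Hspa8, Dnajb1, Dnaja1, Hsf1 and Dnajb9 were lower in both pairs but more so in pair 1. Macrophage markers were at 13 and 15.14 in Cdc25a;neu and 13.39 and 13.35 in neu, and fibroblast markers at 10.91 and 13.01 against 11.28 and 12.12, so the Cdc25a;neu tumour of pair 1 had the lowest sum for both, as it had for Hspa1a, Hspb1 and Hsp90aa1. The same tumour was also the lowest for epithelial, fat cell and skeletal muscle markers. The macrophage sum is mostly Lyz2, at 12.48 and 14.99 in Cdc25a;neu and 12.93 and 12.95 in neu. Csf1r and C1qb, unlike the other macrophage markers, were not lowest in the Cdc25a;neu tumour of pair 1. Skeletal muscle markers were at 10.23 and 10.4 against 10.31 and 12.02, with the neu tumour of pair 2 apart. The part of these other cell types in the chaperone differences was not tested.

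Summed markers of lymphocytes and plasma cells differed little between tumours, and milk genes gave a mixed picture. Plasma and B cell markers summed to 10.47 and 10.54 in Cdc25a;neu and 10.5 and 10.46 in neu, and T and NK cell markers to 10.91 and 10.82 against 10.86 and 10.82. The T and NK cell sum is mostly Cd3e. Secretory alveolar genes summed to 16.1 and 15.85 against 16.01 and 16.4, a sum that is mostly Csn3. Of these 6 genes, 2 were higher in both pairs (31.9% of all genes), 1 was lower (28.1%) and 3 went opposite ways (40%). Lalba, the lower one, was at -1.177 and -1.485 in pairs 1 and 2. Those higher were Csn2, at 0.57 and 2.34, and Wap, at 0.02 and 0.12. Endothelial markers summed to 10.46 and 11.32 against 10.44 and 11.08, with 5 of 8 higher in both pairs (31.9% of all genes) and 0 lower (28.1%). Cd4 was not well above background on any array, and no probe was named for the muscle gene Myh4.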

How the data were processed

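Deposited scanner files hold, per the file headers, intensities and local background medians of the green and red channels, background-subtracted and dye-normalized processed signals, log10 ratios of red over green, and other columns with spot flags. The submitters' processing notes name Agilent Feature Extraction 7.2, and the file headers give 7.5.1. The authors' deposited value table is on a natural log scale, as its slopes of 2.27 to 2.29 against the scanner's log10 ratios show, with how it was centred unknown. Its column medians were 0.0209, 0.0007, 0.0209 and 0.0078, and it served as an alternative.

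Mean signal and background median were corrected by normexp (offset 50) and normalized within arrays by loess, with control spots at weight 0. Spots flagged as outliers were left out, and replicate spots averaged. Probes well above background in either channel on 2 or more arrays were kept. Each gene took its brightest kept probe, and a listed gene the brightest named by symbol where there was one. Arrays were turned to Cdc25a;neu over neu, and the 2 arrays of a pair averaged. Pair means were tested against 0, two-sided, with limma 3.58.1 in R 4.3.3 (lmFit, eBayes) and Benjamini-Hochberg adjustment over 32632 genes at 0.05. Signals per tumour came from the separate channels after Aquantile scaling. Names came from accessions, symbols and synonyms in a GRCm38.p6 table, and 20255 of 41174 probes kept the array's name. The array files name no build. Replicate numbers mark pairs that share arrays, so the pairing is part of every ratio. The procedure was tested on simulated data.

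All measured listed genes are named, and from each wider list up to 3 genes of 1 sign on all 4 arrays with the largest mean. Members, lists and tests were chosen with earlier results of these data known. The number of arrays limits the precision. Each array was its own slide, so slide was not tested as a batch. Alternatives were other background corrections and sources of values, median centring, other filters, the mean of probes, another eBayes, separate channels and leaving out each array.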

Additional observations from a re-analysis of the deposited data

Results flagged for a closer look

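Each of the 31 measured genes was checked for 1 array standing apart from the other 3. Chance sets a value apart in about 1 in 20 groups of 4 independent values. The 2 arrays of a pair share RNA, so that rate need not hold here. Hyou1, the ER chaperone of the Hsp110 family, was set apart by this check. Its log2 ratio was 0.746 on the pair 1 array with Cdc25a;neu in Cy5, against 0.02, -0.11 and -0.01 on the others, a gap of 0.842 of the whole range. Without that array its mean turned from 0.16 to -0.0177.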

How the results depend on the processing

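Of the 31 measured genes, 22 kept their direction under all 14 alternatives. Median centring in place of loess was the only alternative under which limma called any of the 23: 1 of the 23 genes found by symbol was called by limma, Herpud1 (-0.62, adjusted p = 0.00394, with 0.00394 to 1 over its alternatives), and the median over the 23 genes was -0.0246 in place of -0.10. It also called 996 of all genes, with a lowest adjusted p of 1.73e-51, and Edem1 (0.63), Hspb1 (-0.62) and Hspa1a (-0.58) among the others listed (adjusted p of 0.00385, 0.0189 and 0.0277). The cause was not tested. Elsewhere 0 of the 23 were called by limma, with 2 to 8 at an unadjusted p under 0.05, and leaving out each array in turn moved the median between -0.117 and -0.062. The 2 were found with separate channels, where 1038 of 32632 genes were under that p. The 8 were found with the mean of probes, where 3102 of 32632 were. The number of the 23 lower in both pairs ranged from 8 under median centring, where 20.8% of all genes were lower, to 13 in the deposited value table, where 26.6% were.

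The sign turned for 9 genes, whose means lay between -0.11 (Sel1l) and 0.16 (Hyou1). With processed signals Asns was at 0.0141 and Canx at 0.0036. With the deposited table Asns was at 0.0106, Canx at 0.0217 and Sel1l at 0.1038. With median centring Asns was at 0.0375 and Canx at 0.044, and with the mean of probes Hspa9 was at -0.0009 and Canx at 0.037. Without the Cy5 array of pair 1, Hyou1 was at -0.0177, Pdia4 at -0.11 and Sel1l at 0.0092. Without its Cy3 array, Asns was at 0.0153, Canx at 0.0862, Ddit3 at -0.0082 and Hspb8 at 0.0246. Without the Cy5 array of pair 2, Trib3 was at -0.0134, and without its Cy3 array Pdia4 was at -0.1094, Canx at 0.1293 and Hspb8 at 0.0271. At the other end of these omissions, Asns reached -0.0334, Hyou1 0.3432, Pdia4 0.1306, Canx -0.1549, Trib3 0.0704, Ddit3 0.0332, Hspb8 -0.0884 and Sel1l -0.235. Moves of over 1.5 times without a change of sign were common among the smaller means, and 7 genes had neither under any alternative (Hspa1a, Hspb1, Hsph1, Hspa8, Herpud1, Xbp1 and Edem1). Fitting the 4 tumours as separate samples, with no replicate block for the pairing, left the median at -0.10 with 0 genes called, against 0 with the pairing in the ratio. Signals above background limited none of these genes except Hsf2.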
